A study of Mus musculus with 6 samples.

Results

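Distant alternative transcript ends were the events that the table of the MJAY splicing-sensitive arrays classes as an alternative end and that cover more than 10000 bases, counted between the lowest start and the highest end of their paths. The rule used only the event class and the positions, not the intensities. It took 1525 of the 2530 alternative ends, and of 13002 events in the whole table. Intensities were given for 1520 of the 1525, in 1440 genes by symbol, and the 5 events without them were in Glcci1, Gnao1, Klhl12, Nmnat3 and Zh2c2.

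The study compared brain RNA of mice homozygous for the Nxf1 CAST or the Nxf1 B6 allele of the major mRNA export factor, to ask whether the allele changes RNA processing choices outside of introns with an intracisternal A particle (IAP), a retrovirus-like mobile element. Of 6 animals, 3 carried each genotype, and each RNA was hybridized to 1 array. The animals came from a B6.CAST congenic line, in which a segment of chromosome 19 around Nxf1 derives from CAST, so that CAST alleles of neighbouring genes travelled with Nxf1 CAST. They formed 3 littermate pairs. The female pairs were 46 days (generation N37F1) and 23 days old (generation N36F2), and in the male pair (generation N36F2) the Nxf1 B6 animal was 22 and the Nxf1 CAST animal 23 days old. No treatment is given for either group. RNA came from whole brain tissue, where fewer cells of a type and less RNA per cell cannot be told apart.

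Only intensities pooled over the arrays of a set A and a set B were used, as whole numbers with no value per animal, so no spread between animals and no test across them could be had, and the precision of each value is limited by the small number of arrays. Genotypes are not attached to the sets. The header of the table defines a ratio of mutant over wild type that the values show to be set B over set A, and the study's methods define the same ratio as Nxf1 CAST over Nxf1 B6, so set B was likely Nxf1 CAST and set A likely Nxf1 B6. Each event has a path called skipped and a path called included, and which of these uses the nearer end of the gene is not given. The change of an event is the log2 ratio of skipped over included intensity in set B, less the same log2 ratio in set A. A change above 0 means relatively more of the skipped path in set B. An event was called past the fold when its change was over 0.5 in size, a fold of 1.41, which is the size used in the study. The study also required a low false discovery rate q. That condition was not applied here, because q is part of the authors' own comparison. The change from pooled intensities is also not the authors' paired score. The events past the fold therefore have no measure of error and need not include all of the study's calls.

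Most mammalian genes can end at more than one place. Where the ends lie far apart, the transcripts usually carry different last exons, because the RNA is either spliced past an internal exon with its own cleavage and polyadenylation signal, or cut and polyadenylated there. The choice is set by competition between splicing and 3' end formation, and a sense-oriented element in an intron can add such a signal. In brain, alternative last exons give proteins with different C termini, such as the short activity-induced Homer1a scaffold protein and the truncated TrkB receptor from Ntrk2, and they often give receptors that lack a kinase or a membrane anchor.

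Shown here are 3 of these events that the study tested with its own 3-primer competitive PCR assays. The primers are not the array probes behind the intensities. In such an assay the primers amplify both products from the same RNA, here for the Slc17a5 event (chr9:78384315-78418828, minus strand), the Trpc6 event (chr9:8626775-8680741, plus strand) and the Stx3 event (chr19:11849607-11859879, minus strand). Positions are those of the deposited table, whose genome assembly is not given in the sources used here. The oligonucleotides are shown as examples, 2 from genes assayed for an intronic IAP (Slc17a5 and Trpc6) and 1 from a gene near Nxf1 (Stx3). Other distant ends in such genes are described further on. They are written 5′ to 3′ in lower case, with no part set in capitals, and their gel results were not analysed here.
Slc17a5 primer 1: atttcctatgcgggagcac
Slc17a5 primer 2: accttctgcgaagaaagctg
Slc17a5 primer 3: tttgaagtttttcttaagccttttct
Trpc6 primer 1: ttagcaatgagctggcagtg
Trpc6 primer 2: gctctttccagcttggcata
Trpc6 primer 3: tgctgacagtttggatgagc
Stx3 primer 1: ccagccatcttcacttctgg
Stx3 primer 2: ctgtgtgcatgacattcaactct
Stx3 primer 3: ctcaatgcggtcaatcatgg

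Few distant ends differed between the sets by the fold used. Of the 1520 measured events, 34 in 34 genes were past the fold, or 2.24%, beside 7.24% of all 12497 measured events. The share was 3.59% (36 of 1002) for alternative ends of up to 10 kb and 6.56% (85 of 1296) for alternative transcript starts that span over 10 kb. The distant ends are part of all events, and the shares were not tested against each other. The median absolute change was 0.14 for distant ends, 0.14 for the shorter ends, 0.15 for the distant starts and 0.17 for all events, while the 90th percentiles were 0.33, 0.37, 0.44 and 0.45. The groups had close medians and parted further out.

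**Figure D1:**
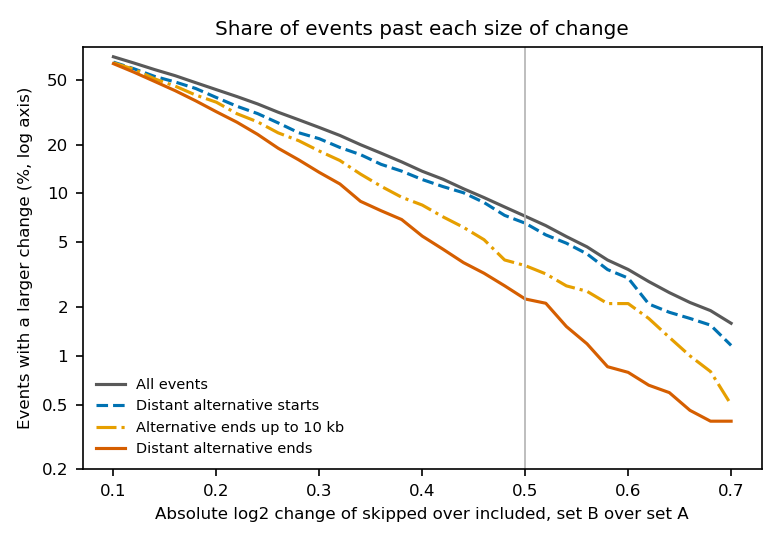
Share of measured events, in percent on a log axis, whose absolute log2 change of skipped over included (set B over set A) is larger than the value on the horizontal axis, for all events, distant alternative starts, alternative ends up to 10 kb and distant alternative ends, with a vertical line at 0.5. At the line the distant ends are lowest at 2.24% and all events highest at 7.24%.

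The share of distant ends past the fold lay below that of all events at each level of signal. Among distant ends whose lowest intensity was under 100, 3.10% of 290 were past the fold, beside 10.3% of the like events in the whole table. The shares were 2.65% of 641 and 7.56% from 100 to below 200, 1.24% of 402 and 6.47% from 200 to below 400, and 3 of 187 and 3.59% from 400 up. The median lowest intensity was 166 in distant ends and 171 over all events. The included path had the lower intensity of the pair in set A in 62.6% of distant ends and in 44.5% of all events, and the median absolute change of the skipped path alone was 0.09 in distant ends and 0.15 over all events. For the included path alone it was 0.12 and 0.13. Alternative ends of up to 10 kb were much like the distant ends in this, with the included path lower in 65.4% and a median of 0.10 for the skipped path. Their shares past the fold were 6.32% under 100, 3.34% from 100 to below 200 and 3.75% from 200 to below 400. Of their 126 events from 400 up, 0 were past the fold. The shorter ends thus also lay below all events at each level, and above the distant ends except from 400 up.

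Of the 34 events, 18 lay above 0 (1.18% of the distant ends, beside 4.52% of all events) and 16 below (1.05%, beside 2.72%). Among the shorter ends 2.3% lay above and 1.3% below, and among the distant starts 3.4% and 3.16%. The split rests on where zero is set. With every change taken relative to the median over all events, 0.03 on the log2 scale, 15 lay above and 20 below, and the split over all events went from 565 above and 340 below to 448 above and 436 below. In 3 events the change was over 1 in size, and in 22 it was between 0.5 and 0.6. A further 49 distant ends had a change between 0.4 and 0.5 in size.

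Abhd5, the coactivator of adipose triglyceride lipase, and Pld1, a phospholipase D, had the highest changes of the genes named here, beside Slc17a5. For Abhd5 the skipped path had 153 in set A and 255 in set B, the included path 309 and 299, for a change of 0.78. That of Pld1 had 97 and 147 and its included path 350 and 333, for a change of 0.67. In both genes the weaker, skipped path was higher in set B and the stronger path was nearly level (weak and strong, like dim and bright, refer to array signal, not to amounts of transcript). AW554918 was alike, with 354 and 519 for the skipped path, 542 and 540 for the included path, and a change of 0.56.

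Crkrs (now Cdk12), a kinase of the RNA polymerase II tail, was the event past the fold with the highest signal on its dimmer path. It had 2514 in set A and 3061 in set B for the skipped path and 1203 and 947 for the included path, so that the paths differed in opposite directions, for a change of 0.63. Taf15, an RNA-binding protein of the FET family, had 372 and 416 for the skipped and 221 and 162 for the included path, for a change of 0.61. Ptbp2, the polypyrimidine tract binding protein of neurons, had 1682 and 1583 for the skipped and 321 and 209 for the included path, for a change of 0.53. In Taf15 and Ptbp2 the included path was the dimmer path and had the larger difference.

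In 6 more events of named genes above 0 the included path was lower in set B. Garnl1 (now Ralgapa1), part of a GTPase-activating complex for Ral, had 701 in set A and 439 in set B for the included path and 1412 and 1295 for the skipped path, with a change of 0.55. Pcdh17, a protocadherin, had 235 and 160 for the included path and 492 and 487 for the skipped path, with a change of 0.54. Cluap1, a protein of intraflagellar transport in cilia, had a change of 0.55, Pkhd1, the fibrocystin gene, of 0.56, Tdrd3, a Tudor domain protein, of 0.52, and 4930481F22Rik (now Syce1l) of 0.59. Pkhd1, Tdrd3 and Cluap1 were dim, with included paths of 231, 162 and 131 in set A and 184, 120 and 95 in set B. The skipped path of Pkhd1 was dimmer than its included path, with 121 and 142. BC030307 and the transcripts uc007myz-1 and uc007ksg-1 had changes of 0.55, 0.64 and 0.52, with lowest intensities of 134, 80 and 85.

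The lowest change was that of Serpina3m, a gene of the clustered serine protease inhibitors. Its event at chr12:105579360-105632468 (plus strand) had a skipped path of 564 in set A and 194 in set B, while the included path had 202 and 205, for a change of -1.56. An alternative start of the same gene, which overlaps this event, had 288 and 87 for its included path and 96 and 127 for its skipped path, for a change of 2.13. Lyz1, a lysozyme, came next, at -1.34. It had 172 in set A and 441 in set B for the included path and 130 and 132 for the skipped path, and an alternative start of Lyz1 had higher intensities in set B on both paths, 216 and 431 for the skipped and 248 and 331 for the included. Serpina3m and Lyz1 have near-identical neighbouring copies in the mouse genome, so which copy the probes measured is uncertain. Myeloid cells are among the makers of lysozyme, which does not place Lyz1 itself in them. In the list of microglia markers, the mean of both paths differed between the sets by -0.09 to 0.14 on the log2 scale over 5 events, all with intensities of 100 to 459, and of blood cell markers by 0.11 and 0.18 in 2 events. Their part in the Lyz1 value was not tested.

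Wdr8 (now Wrap73), a WD repeat protein of the centrosome, had 931 in set A and 527 in set B for the skipped path and 163 and 193 for the included path, for a change of -1.06. It was the only event past a change of 1 in size, beside Serpina3m and Lyz1. Tef, a PAR bZIP transcription factor of the circadian output, had 237 and 159 for the skipped path and 608 and 641 for the included path, for a change of -0.65. Sgk1, a serum and glucocorticoid induced kinase, had 455 and 304 for the skipped and 1205 and 1187 for the included path, for a change of -0.56. In Tef and Sgk1, as in Rnf170 (253 and 174, and 1417 and 1395, a change of -0.52), a ubiquitin ligase for inositol trisphosphate receptors, the bright included path was nearly level and the dim skipped path was lower in set B.

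Myh9, a non-muscle myosin heavy chain, had 595 in set A and 924 in set B for the included path and 626 and 671 for the skipped path, for a change of -0.53. Coro2a, a coronin, had 126 and 150 for the included and 360 and 282 for the skipped path, for a change of -0.60. Neb, the giant nebulin of muscle thin filaments, and Fer1l3 (now Myof), the membrane repair protein myoferlin, had changes of -0.57 and -0.53 that rested on included paths of 60 and 66 in set A and 83 and 94 in set B. Ikzf2, the transcription factor Helios, was as dim (58 and 81) and had a change of -0.53. Sipa1l3 and Wfdc3 had changes of -0.52 and -0.57, and the events filed under Pelo, 1700037C18Rik and the transcript uc007epl-1 had -0.52, -0.57 and -0.54. With 16 added to each intensity before the ratios, 13 of the 34 events came within the fold: those of Pcdh17, Ptbp2, Tdrd3, Cluap1, BC030307 and uc007ksg-1 above 0, and those of Rnf170, Sipa1l3, Pelo, Ikzf2, Fer1l3, Neb and uc007epl-1 below. The genes past the fold that lie outside the naming rule given in the account of the processing were named after their values were seen.

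**Figure D2:**
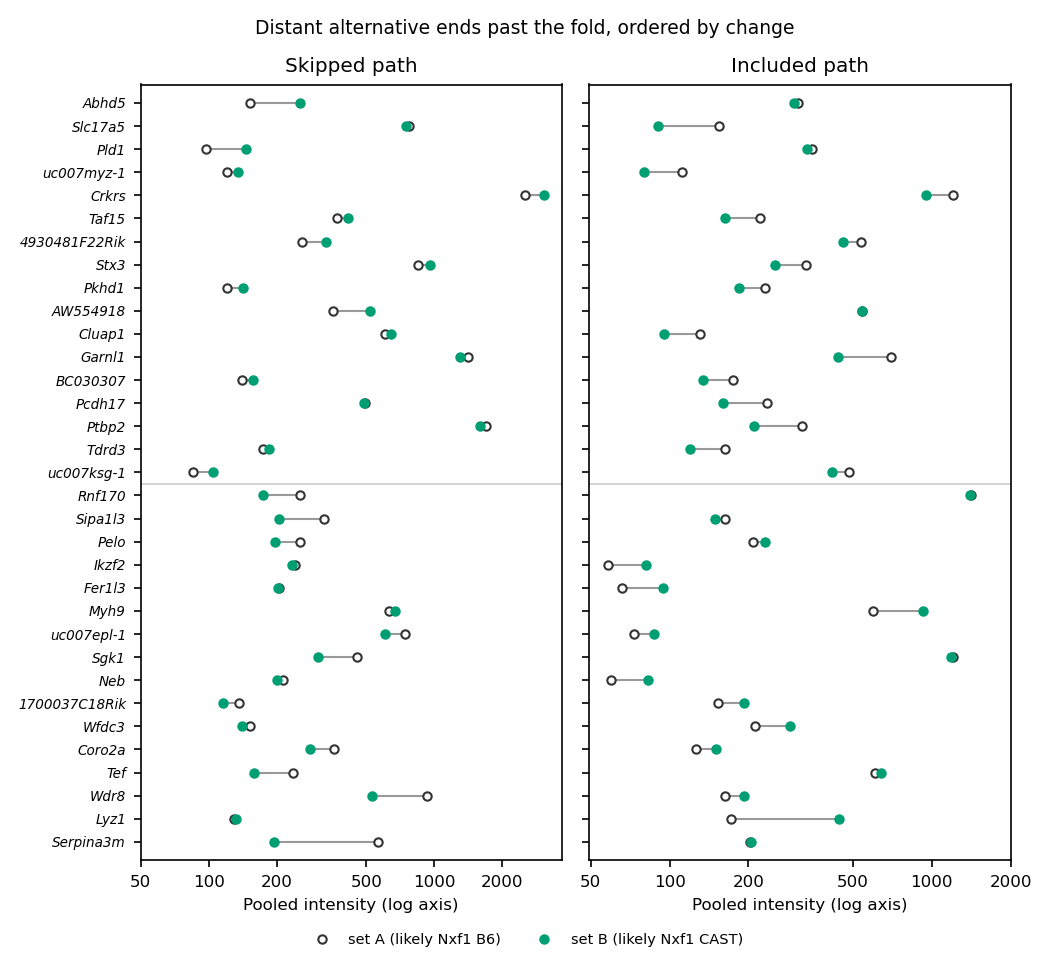
Pooled intensity (log axis) of the skipped path (left) and the included path (right) in set A (open circles, likely Nxf1 B6) and set B (filled circles, likely Nxf1 CAST) for 33 of the 34 distant alternative ends past the fold, ordered from the highest change (Abhd5, 0.78) to the lowest (Serpina3m, -1.56), with a line between events above and below 0. The longest lines are the skipped path of Serpina3m (564 and 194) and the included path of Lyz1 (172 and 441), and the other path of each gene is level.

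Either path could carry the difference. In 13 of the 18 events above 0 the included path differed more and was lower in set B, and in the other 5 the skipped path differed more and was higher. Below 0, the skipped path differed more and was lower in 9 of 16 events, and the included path differed more and was higher in 7. The dimmer path differed more in 16 of the 18 events above 0 and in 7 of the 16 below, against 921 of the 1486 distant ends within the fold. A path differed by over 0.5 in 23 distant ends, the skipped path in 10 (4 higher and 6 lower in set B) and the included path in 13 (4 higher and 9 lower). Of these 23 events, 17 were past the fold, and in none did both paths pass 0.5 in the same direction.

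**Figure D3:**
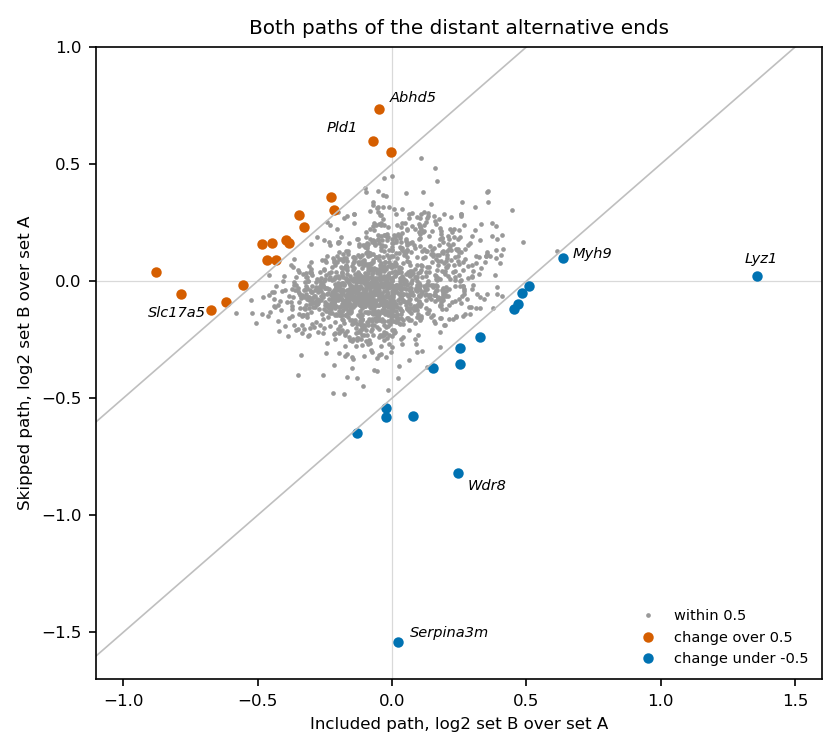
Log2 ratio of set B over set A for the skipped path (vertical) against the included path (horizontal) of the 1520 measured distant alternative ends, with diagonal lines where the change equals 0.5 or -0.5. The 18 events above the upper line and the 16 below the lower line are coloured. Serpina3m and Lyz1 lie far out along an axis, where the other path is level.

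The genes that the study assayed for an intronic IAP held 12 distant ends, of a list of 47 symbols, and 1 of these was past the fold, beside 2.24% of all distant ends. In lists as short as this and those that follow, a count of 0 or 1 past the fold is no result about the list. Slc17a5, the lysosomal sialic acid exporter sialin, had an included path of 155 in set A and 90 in set B, with a skipped path of 775 and 746, for a change of 0.73. Trpc6, a diacylglycerol-gated cation channel, had 129 and 123 for the included and 370 and 431 for the skipped path, for a change of 0.29. Exoc4, a subunit of the exocyst, lay between them, with 959 and 707 for the included and 562 and 533 for the skipped path, for a change of 0.36. Slc15a2, a proton-coupled peptide transporter, had 106 and 108 for the included and 326 and 340 for the skipped path, for a change of 0.03. These were the 4 changes above 0 in the list.

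The other 8 IAP genes lay below 0 and within the fold. The phosphodiesterase gene Pde4d had a change of -0.19, the Rac exchange factor Tiam1 of -0.23, the regulator of G protein signalling Rgs3 of -0.27 and the adhesion receptor Lphn3 (now Adgrl3) of -0.04. Cpne8, L3mbtl4, Nudcd3 and Tmco3 had -0.16, -0.21, -0.23 and -0.24. The median over the 12 events was -0.17, beside 0.03 over all distant ends. Slc17a5, Trpc6 and Slc15a2 were singled out by the study from these same arrays, so their values are no independent evidence of a direction. The study used its own scores for that, which were not used here. In the study's separate assays Slc15a2 and Trpc6 replicated, by quantitative PCR or by both quantitative PCR and gel. Slc17a5, past the fold here, could not be replicated there. In the pooled intensities the distant ends of Trpc6 and Slc15a2 were within the fold, though the study called both genes from its scores. Why the pooled values differ from those calls was not tested, and other events of Trpc6 and Slc15a2 were not looked at singly. Over events of any class, the list of 47 symbols had 44 events in 25 genes. Of these, 3 were past the fold, beside 7.24% of all events, a difference not tested. Whether the IAP lies inside the span of the array event is not given by the table for any of the 12.

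On chromosome 19 there were 36 distant ends, 2 of them past the fold (5.56%, beside 2.24% over all chromosomes, a difference not tested), and 6 lay between 7 and 12 Mb, a stretch set here around Nxf1. Stx3, a syntaxin of the membrane fusion machinery, had 331 in set A and 252 in set B for the included path and 843 and 951 for the skipped path, for a change of 0.57, the only 1 of the 6 past the fold. Tmem216, a protein of the ciliary transition zone, had 80 and 99 for the skipped and 242 and 243 for the included path, for a change of 0.30. Stip1, a co-chaperone of Hsp70 and Hsp90, had 1458 and 1558 for the skipped and 242 and 212 for the included path, for a change of 0.29. The paths of Stip1, like those of Stx3, differed in opposite directions. The study holds that array differences inside the CAST segment likely come from probe mismatches or from allelic differences that do not depend on Nxf1. This was not tested here. In the study's gel assays Stx3 differed between congenic animals homozygous for either allele. It did not differ significantly between animals heterozygous for the edited E610G allele of Nxf1 and animals without it. Heterozygous congenic samples, taken from an archive, were added to that assay and showed no significant Stx3 difference either.

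The rest of the stretch was 0610038F07Rik (now Sdhaf2), an assembly factor of succinate dehydrogenase, with a change of 0.31, AI846148 (now Spindoc) with 0.18 and Ahnak, a giant scaffold protein, with -0.13. Of the 6, 5 lay above 0, beside 56.8% of all distant ends, and their median was 0.29, beside 0.03. The second event past the fold on chromosome 19 was that of Fer1l3, outside the stretch. By chromosome, the counts past the fold ran from 0 on chromosomes 5, 6 and X (101, 96 and 48 distant ends) to 4 of 67 on chromosome 10.

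**Figure D4:**
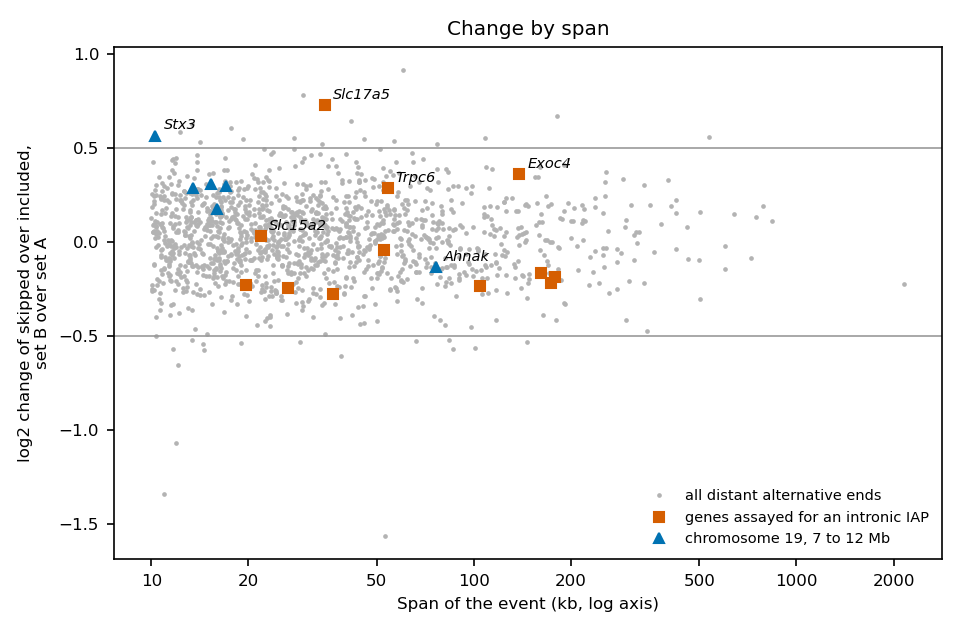
Log2 change of skipped over included (set B over set A) against the span of the event in kb on a log axis for the 1520 measured distant alternative ends, with lines at 0.5 and -0.5. Squares mark the 12 events in genes assayed for an intronic IAP, of which only Slc17a5 (0.73) is past the fold, and triangles mark the 6 events on chromosome 19 between 7 and 12 Mb, of which only Stx3 (0.57) is.

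The share past the fold followed no order of length. Spans ran from 10007 bases (an event of Eif4g3) to 2159973 bases (Lsamp), with a median of 28628.5 and quartiles of 16598 and 56265.8. Past the fold were 14 of 510 events (2.75%) of 10 to 20 kb, 8 of 575 (1.39%) of 20 to 50 kb, 7 of 241 (2.90%) of 50 to 100 kb and 5 of 194 (2.58%) above that, and the median absolute changes were 0.14, 0.13, 0.13 and 0.15. The 5 longest were within the fold. Lsamp, an adhesion protein of limbic neurons, had 535 in set A and 452 in set B for the skipped path and 2117 and 2089 for the included path, for a change of -0.22. The event of 5033411D12Rik (now Sugct) had 0.11, that of the synaptic adhesion gene Lrrtm4 0.19, that of Mdga2, which binds neuroligins, 0.14, and that of the nuclear receptor gene Rora -0.08.

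At the length limit, the events just inside it were those of Eif4g3 (10007 bases, change 0.13), Clstn2 (10018 bases, 0.26) and uc009hgf-1 (10027 bases, 0.19). Those just outside were of Fbxw10 (9998 bases, -0.37), Isl1 (9993 bases, -0.27) and Zfr2 (9947 bases, -0.40). None of these 6 was past the fold.

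Genes known for alternative last exons in brain gave 10 distant ends in 8 genes, none past the fold, beside 2.24% of all distant ends. Homer1, whose short form ends early, had 1085 in set A and 861 in set B for the skipped path and 448 and 405 for the included path, for a change of -0.19. Ntrk2, the receptor of brain-derived neurotrophic factor, was level on both paths, with 1503 and 1475 for the skipped and 3788 and 3794 for the included path, for a change of -0.03. Both paths of Homer1 were lower in set B, with log2 ratios of -0.33 and -0.15.

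In that list, Dclk1 and Ncam1 had 2 distant ends each. Dclk1, a kinase of the doublecortin family, had changes of 0.19 and 0.09. The neural adhesion gene Ncam1 had 0.32 and -0.06, the first from an included path of 467 in set A and 364 in set B beside a skipped path of 3809 and 3714. Grip1, which anchors AMPA receptors, had a change of 0.31, the tropomyosin gene Tpm3 of -0.24, the calcium-activated potassium channel Kcnma1 of -0.08 and the cytolinker Dst of -0.05.

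Receptors with truncated or soluble forms gave 14 distant ends in 12 genes, none past the fold, beside 2.24% of all distant ends. Ifnar2, an interferon receptor chain with a soluble form, had 958 in set A and 745 in set B for the skipped path and 341 and 347 for the included path, for a change of -0.39. The ephrin receptor Epha7 had 570 and 454 for the included and 932 and 908 for the skipped path, for a change of 0.29. Pdgfra had -0.27, Epha3 0.22, Il1rap 0.25 and -0.01, Fgfr2 -0.18, Ghr -0.11, Ntrk3 -0.10, Flt1, known for its soluble form, 0.10 and Egfr -0.03. The median of the list was -0.03, beside 0.03 over all distant ends.

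Synaptic vesicle and scaffold genes gave 21 distant ends, of which 2 were past the fold, both above 0, that of Stx3 among them. That is 9.52% of the list, beside 2.24% of all distant ends and 7.24% of all events, and the difference was not tested. Homer2 had the lowest change of that list, -0.28. Of 36 events in adhesion and axon guidance genes, only that of Pcdh17 was past the fold. Itgax, an integrin of myeloid cells, and Ptprk, a receptor phosphatase, came next at 0.38 each, from included paths of 71 and 67 and of 89 and 78, and Negr1, a neuronal adhesion protein, had 0.35 from an included path of 759 in set A and 614 in set B.

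Ion channel genes gave 20 and neurotransmitter receptor genes 11 distant ends, none past the fold, beside 2.24% of all distant ends. Trpm3, a heat-sensing cation channel, had 673 in set A and 491 in set B for the included and 332 and 303 for the skipped path, for a change of 0.32. The metabotropic glutamate receptor Grm4 had 106 and 132 for the skipped and 2800 and 2779 for the included path, for a change of 0.33, the GABA-B receptor subunit Gabbr1 had -0.31 and the kainate receptor Grik2 0.22. The lists matched symbols by their first letters and also took in Trp63 (-0.43 and 0.43), a p53 family member, Itprip (-0.39) and the protease Htra3 (-0.21), which are neither channels nor receptors.

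Against the same 2.24%, solute carriers gave 23 distant ends, with Slc17a5 past the fold. The astrocyte glutamate transporter Slc1a3 had a change of 0.40 in a bright event, with 6872 in set A and 7720 in set B for the skipped and 536 and 455 for the included path, and 0.22 in its other event. Slc25a23, a mitochondrial carrier, had 0.35 and Slc13a1, a sulfate transporter, 0.29. Cytoskeleton and motor genes gave 26 events, of which that of Myh9 was past the fold, and Myom1 and Dnahc9 had -0.43 and 0.34. Kinase and cyclic nucleotide signalling genes gave 32, none past the fold, with Wnk1, which regulates chloride cotransporters, at -0.34, Map3k8 at -0.31 and Akap13 at -0.29. That list also caught Gnb1l (0.32), which is not a kinase.

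RNA-binding and 3' end processing genes gave 26 distant ends, of which that of Ptbp2 was past the fold. Rbm39, a splicing coactivator, had 390 in set A and 316 in set B for the skipped path and 3687 and 3936 for the included path, for a change of -0.40. The helicase genes Ddx59 and Dhx29 had -0.40 and -0.34. The largest list, of transcription factors and chromatin genes, had 62 events and none past the fold, beside 2.24% of all distant ends. Mef2c, a factor of neuronal differentiation, came closest at 0.46, with 272 and 211 for the included and 4234 and 4525 for the skipped path. Its relative Mef2b had -0.42, Foxo3 had -0.41 and Zfp536 had 0.40. Every list held at most 2 events past the fold.

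Distant ends of 1 gene often differed in their changes. In 74 genes there were 154 such events, up to 4 a gene, all with intensities of their own. Their changes had the same sign in 43 of the 74 genes, the median range within a gene was 0.18, and the largest was 0.86. In 4 genes 1 of the events was past the fold, and in none were 2. Agtpbp1, a deglutamylase of tubulin, had -0.20, -0.15 and -0.14 over its 3 events, while Eif4g3, a translation initiation factor, had 0.13, -0.15 and 0.22 over 3.

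Of the 34 genes with a distant end past the fold, 24 had other events on the array. Of those 33 other events, 4 were past the fold: the starts of Serpina3m and Lyz1, an alternative start of 4930481F22Rik (447 and 390 for the skipped and 114 and 150 for the included path, a change of -0.59) and a retained intron of Taf15. The Taf15 intron had 265 in set A and 434 in set B for the included path, which keeps the intron, and 687 and 777 for the skipped path, for a change of -0.53. In the other genes with distant ends, 119 of 1469 other events were past the fold. Both counts stand beside 7.24% of all events and were not tested. The first rests on only 4 events and is no result about those genes.

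The tissue label was checked with marker genes of any event class. Markers of neurons, astrocytes and myelin gave signal, with intensities of up to 12087, 10330 and 11314, and no order of cell types is drawn from intensities of different probe sets. The median log2 ratio of set B over set A of both paths together was -0.11 over 7 neuron events (-0.33 to 0.29). It was -0.17 over 4 immature neuron events (-0.27 to 0.10), -0.03 over 9 astrocyte events (-0.14 to 0.08) and -0.04 over 9 myelin events (-0.11 to 0.10). Endothelial markers had -0.12 over 5 events (-0.20 to 0.24), and the 1 choroid plexus event had -0.13. Distant ends of the marker genes were within the fold: those of the tubulin-binding gene Stmn2 (0.24), of Dcx (0.08), where both paths were lower in set B (785 and 670, and 571 and 461), of Mbp (0.02) and of Slc1a3.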

How the data were processed

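Total brain RNA of 6 mice was hybridized to Affymetrix MJAY arrays, 1 array per animal, and per the labels the arrays were processed with Affymetrix Power Tools. The deposited intensities are whole numbers, 1 per path and set, which the authors summarized over probe sets and pooled over the arrays of a set. How the arrays were normalized and the genome assembly are not given in the sources used here. The table also holds the authors' separation scores and q-values for a paired and a standard comparison. These are their own comparison and were not used. The intensities of both comparisons were identical.

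Paths were joined by event name. Events with 1 skipped and 1 included path and all 4 intensities entered (12497), and 451 events of other structure did not. Changes were computed as log2 ratios with no pseudocount. Shares past the fold are descriptions with no test. The steps were run on simulated intensities with set changes and no noise, which checks the computation only and gives no error rate. Of the distant ends, 1153 had a symbol current in RefSeq (GRCm38.p6), of which 141 lay within that gene's bounds there, so no reference sequence was used. Where the paths of an event are called dim or bright, this describes array signal, since intensities of different probe sets do not rank amounts of transcript.

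Members and gene lists were chosen with earlier results of these data known. Named were events in genes the study names from these arrays or assayed for an IAP, those on chromosome 19 between 7 and 12 Mb, the 8 highest and 8 lowest changes with all intensities at least 100, the 5 longest spans, 3 on each side of the length limit, the 4 largest changes of each gene list and every event in the textbook list of alternative last exons. Results of a few events that fall under this rule are not reported here, though the counts include them. Alternatives were other fold, intensity and span thresholds, 16 added to each intensity, and centring. Python 3.11.15, numpy 2.4.6, pandas 2.3.3 and matplotlib 3.10.9 were used.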

Additional observations from a re-analysis of the deposited data

How the results depend on the processing

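No paired analysis was possible because the intensities used here are pooled over the arrays of a set, so neither the littermate pairs nor leaving out an animal could be tried. The authors' paired scores and q-values, their own comparison, were set aside. The count of distant ends past the fold was 205 at an absolute change over 0.3 and 3 over 1, 8 with all 4 intensities at least 200, 21 with 16 added to each intensity and 20 among spans over 20000 bases. For all events the counts were 3189 over 0.3, 27 over 1 and 285 at intensities of at least 200. For the shorter alternative ends they were 183, 0 and 10, and for the distant starts 282, 3 and 27. The counts stayed within 1.5 times the main one at a fold of 1.4 (40 distant ends), at intensities of at least 100 (25), with centring (35), with a span over 8000 bases (34), with the mean over paths (34) and with genes counted (34). Adding 16 kept 21 of the 34 calls and centring kept 31. With 16 added, distant ends were past the fold in 1.38% and all events in 5.33%, and at intensities of at least 200 in 1.36% and 5.43%. Of the 126 named events, 13 came within the fold with 16 added and 3 with centring, the latter being Ptbp2, Tdrd3 and uc007ksg-1. No setting turned the direction of a called event.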
